A study of Mus musculus with 18 samples.

Results

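Tmem86a, Tmem86b, Gnpat, Agps and Far1, genes that break down or build plasmalogens, were followed in mouse kidney cortex through aristolochic acid injury, with and without Klf15 in the proximal tubule. The members are the 5 rows, of 24062 genes in the deposited expression table, that carry these names, and all 5 passed the filter on low values. Tmem86a was chosen because its response to the toxin differed between genotypes in these same libraries, so its levels and differences are described here without a test. The other 4 genes were chosen for their function, though with earlier results of these data known, and were tested.

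Plasmalogens are membrane phospholipids whose first chain is held by a vinyl ether bond in place of an ester. Their synthesis starts in the peroxisome, with a fatty alcohol from FAR1 and the enzymes GNPAT and AGPS, and ends in the endoplasmic reticulum. Lysoplasmalogenases, of which TMEM86A and TMEM86B are the known mammalian members, cleave the vinyl ether bond of plasmalogens that have already lost their second chain. Kidney tubules are rich in peroxisomes and in ether phospholipids.

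RNA was sequenced from PBS-perfused kidney cortex of C57Bl/6 mice. Klf15fl/fl mice (fl/fl) carry floxed Klf15, which encodes a zinc finger transcription factor, and in Klf15PTKO mice (PTKO) the gene is targeted in the proximal tubule. Each genotype had 3 groups of 3 libraries, 18 libraries in all. One group received the vehicle DMSO, another received aristolochic acid I, a nephrotoxin of Aristolochia plants, over 2 weeks (AA 2wk), and the last had the same exposure and then a remodeling period of 2 weeks (AA 4wk). The sources used here name neither the Cre line nor the deleted exons, age or sex. No group with Cre and intact Klf15 is labelled, so loss of Klf15 and presence of Cre cannot be told apart. Nothing in the labels says that the 3 libraries of a group came from separate mice, so p-values measure the spread between these libraries, which may in part be technical.

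Klf15 itself lay between 53.0 and 65.5 RPKM in fl/fl DMSO and between 28.5 and 32.6 in PTKO DMSO. RPKM is a read count scaled by transcript length and by library depth. At AA 2wk the genotypes overlapped in Klf15, with 18.6 to 41.3 RPKM in fl/fl and 12.5 to 25.6 in PTKO, and at AA 4wk they did not, with 11.6 to 18.8 in fl/fl and 8.81 to 9.53 in PTKO. Library 3 of both AA 2wk groups stood apart: on the first principal component of the tested genes these libraries scored -7.3 and -7.1, between the DMSO libraries (-90.0 to -66.1) and the other AA 2wk libraries (34.0 to 48.6). Depth, as recovered reads, was 10980292 to 21922307 per library. Summed RPKM of 8 proximal tubule markers was 44615 to 56345 in the DMSO libraries and 1298 to 6680 after the toxin. Kap made up most of the DMSO sums, with 39200 to 50700 RPKM. At an adjusted p under 0.05 limma called 6 of the 8 lower at AA 2wk in fl/fl, 5 in PTKO, and 6 and 8 at AA 4wk. Of all genes, 12.2%, 14.3%, 14.3% and 17.3% were called lower. Slc5a2 did not fall at AA 2wk, its mean going from 151 to 163 RPKM in fl/fl and from 164 to 214 in PTKO. Summed RPKM of 9 macrophage markers was 70.9 to 133 with DMSO and 454 to 4869 after the toxin. Tubule injury markers, 3 genes, summed to 1.3 to 3.27 RPKM with DMSO except in PTKO DMSO library 3 (35.3), and to 494 to 1763 after the toxin. T cell markers, 3 genes, summed to at most 1.68 RPKM with DMSO and 6.03 to 58.9 after the toxin. Endothelial markers, 4 genes, summed to 108 to 184 RPKM throughout. Adipocyte markers, 5 genes, summed to at most 1.2 RPKM except in PTKO AA 4wk library 2 (13.1). In these bulk samples fewer cells of a type and less RNA per cell cannot be told apart, and the part of cell composition in the results below was not tested.

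Promoter letters are shown for Tmem86a, whose level followed genotype and toxin, and for Agps and Far1, which fell the furthest among the synthesis members. The windows come from RefSeq on GRCm38.p6, the build also called mm10, and all 3 are on the plus strand and end at the base before the GENCODE M21 gene start. For Tmem86a that start lies before the RefSeq one, so its window was shortened to 211 bases. Capitals mark CACCC or its reverse complement GGGTG, a box that KLF family factors are known to bind. Tmem86a lies at chr7:47050601-47054777, and its window is chr7:47050390-47050600. Agps lies at chr2:75832177-75931350, and its window is chr2:75831927-75832176. Far1 lies at chr7:113513834-113571511, and its window is chr7:113513584-113513833.
Tmem86a: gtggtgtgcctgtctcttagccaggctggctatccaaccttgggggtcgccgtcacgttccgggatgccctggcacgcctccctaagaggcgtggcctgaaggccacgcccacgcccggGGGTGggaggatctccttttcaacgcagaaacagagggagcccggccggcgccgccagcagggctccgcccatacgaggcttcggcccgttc
Agps: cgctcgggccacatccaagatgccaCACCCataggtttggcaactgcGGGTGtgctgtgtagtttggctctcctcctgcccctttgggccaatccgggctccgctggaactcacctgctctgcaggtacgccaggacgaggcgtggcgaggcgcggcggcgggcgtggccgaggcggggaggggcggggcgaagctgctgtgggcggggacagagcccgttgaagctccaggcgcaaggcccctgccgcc
Far1: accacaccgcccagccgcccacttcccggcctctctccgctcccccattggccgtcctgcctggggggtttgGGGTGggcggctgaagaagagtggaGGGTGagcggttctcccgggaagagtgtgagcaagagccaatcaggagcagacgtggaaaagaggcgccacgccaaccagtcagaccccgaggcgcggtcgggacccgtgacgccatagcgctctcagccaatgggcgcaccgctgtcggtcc
No annotated exon overlaps these windows. In the 250 bases before the RefSeq start, searched on both strands, CACCC occurred 1 time for Tmem86a, Tmem86b and Gnpat and 2 times for Agps and Far1. It occurs in 52% of the 32851 promoters in the table. GGGCGG, the GC box, matched 1 time for Tmem86a and Gnpat, 2 times for Agps, 3 times for Far1 and 0 times for Tmem86b, and is found in 32.7% of promoters. A repeat of AGGTCA spaced by 4 bases, of the kind that LXR receptors bind, had 0 matches in the members and is found in 0.0152% of promoters. A match of letters is not evidence of binding, and the absence of one says only that these letters are not in the window.

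Tmem86a, an endoplasmic reticulum lysoplasmalogenase, was higher in PTKO than in fl/fl cortex under vehicle, and this order was inverted after 2 weeks of toxin. The fl/fl DMSO libraries held 16.9, 19.3 and 14.8 RPKM and the PTKO DMSO libraries 31.1, 29.0 and 35.2, a mean of 17.0 ± 2.25 against 31.8 ± 3.16 (SD, n = 3). All PTKO libraries were above all fl/fl libraries. At AA 2wk the fl/fl libraries had 17.4, 16.0 and 21.7 RPKM and the PTKO libraries 12.8, 14.0 and 9.85. Here every PTKO library was below every fl/fl library. At AA 4wk fl/fl had 27.3, 29.8 and 26.9 RPKM and PTKO 22.8, 28.4 and 24.7, and the groups overlapped only through PTKO library 2 (28.4).

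**Figure D1:**
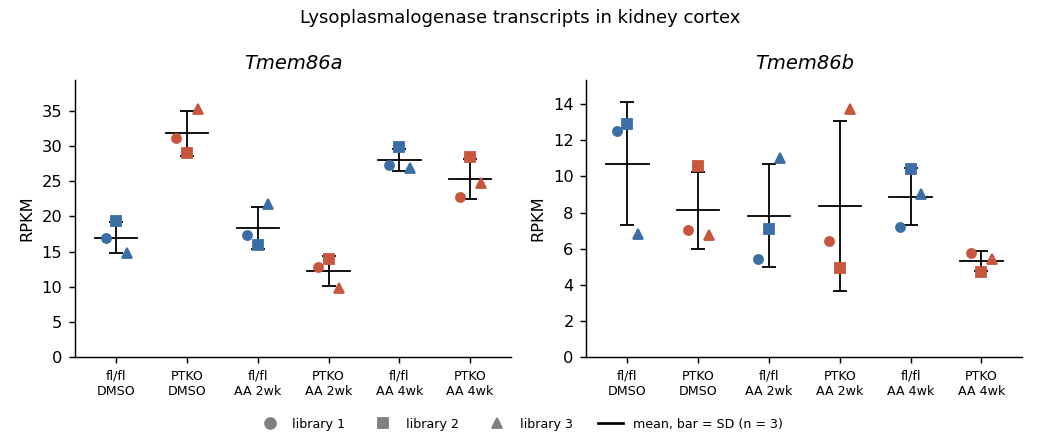
RPKM (y axis, from 0) of Tmem86a and Tmem86b in each of the 18 libraries, by group (x axis), with the mean (line) and SD (bars, n = 3); blue is fl/fl and red is PTKO. Tmem86a was between 29.0 and 35.2 RPKM in PTKO DMSO and between 9.85 and 14.0 in PTKO AA 2wk, while for Tmem86b the groups overlapped apart from PTKO AA 4wk, whose highest value of 5.78 lay below both DMSO groups and the fl/fl AA 4wk group.

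On the log2(RPKM + 1) scale, the genotype difference (PTKO minus fl/fl) in Tmem86a was 0.86 ± 0.14 (SE) under vehicle. It was -0.55 ± 0.14 at AA 2wk, and -0.15 ± 0.14 at AA 4wk. Without library 3 of both AA 2wk groups the AA 2wk difference was -0.30. Relative to DMSO, the change at AA 2wk was 0.10 ± 0.14 in fl/fl and -1.32 ± 0.14 in PTKO. At AA 4wk it was 0.69 ± 0.14 in fl/fl and -0.32 ± 0.14 in PTKO. These differences share their DMSO libraries. The toxin effect in PTKO minus that in fl/fl, the quantity for which the gene was chosen, was -1.42 ± 0.20 at AA 2wk (-1.16 without both libraries 3) and -1.01 ± 0.20 at AA 4wk. From AA 2wk to AA 4wk Tmem86a was higher by 0.59 ± 0.14 in fl/fl and by 1.0 ± 0.14 in PTKO, and in both genotypes every AA 4wk library was above every AA 2wk library.

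Medians of 2 marker lists of other cells, picked after their values were seen, differed between genotypes partly as Tmem86a did. The 2 thick ascending limb markers summed to 1200 to 2483 RPKM in fl/fl DMSO and 1893 to 2260 in PTKO DMSO, to 1249 to 5184 and 1387 to 2980 at AA 2wk, and to 3263 to 4039 and 1840 to 2826 at AA 4wk. Their median genotype difference on the log2 scale was 0.28 under vehicle and -0.67 in both toxin groups, and their median interaction was -0.95 at both times. Their median change over DMSO was 0.72 in fl/fl and -0.23 in PTKO at AA 2wk (Tmem86a 0.10 and -1.32). At AA 4wk it was 0.96 and 0.01 (Tmem86a 0.69 and -0.32). The 6 fibroblast markers had a median interaction of -0.86 at AA 2wk and 0.01 at AA 4wk. Unlike Tmem86a, their median rose over DMSO in both genotypes, by 1.42 in fl/fl and 0.37 in PTKO at AA 2wk. At AA 4wk the rise was 1.49 and 1.62. Within the list Acta2 ran the other way between genotypes. Its means were 18.7 RPKM in fl/fl and 14.5 in PTKO with DMSO, and 64 and 74.7 at AA 2wk. limma called 0 of these 8 markers between genotypes or in the interactions, with 0 at an unadjusted p under 0.05 and 0 called by voom. In each of these comparisons at most 0.0367% of all genes were called by limma. PTKO DMSO library 3, the highest for Tmem86a, had 24.9 RPKM of the injury gene Havcr1, against at most 0.978 in the other vehicle libraries, and without it the Tmem86a genotype difference with DMSO was 0.79. The part of these cells and of injury in the Tmem86a pattern was not tested.

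By group mean, the order of Tmem86a levels was PTKO DMSO, fl/fl AA 4wk, PTKO AA 4wk, fl/fl AA 2wk, fl/fl DMSO and PTKO AA 2wk. Neighbours overlapped at 3 steps of this order: PTKO DMSO with fl/fl AA 4wk, fl/fl AA 4wk with PTKO AA 4wk, and fl/fl AA 2wk with fl/fl DMSO. The gap between PTKO AA 4wk (lowest 22.8 RPKM) and fl/fl AA 2wk (highest 21.7) and that between fl/fl DMSO (lowest 14.8) and PTKO AA 2wk (highest 14.0) were both narrow. The number of reads behind a Tmem86a value was 219 to 1223.

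Tmem86b, the other lysoplasmalogenase, showed no such pattern, and it had the lowest mean RPKM of the members in every group. Its libraries had 12.5, 12.9 and 6.82 RPKM in fl/fl DMSO and 7.06, 10.6 and 6.75 in PTKO DMSO. At AA 2wk they had 5.44, 7.09 and 11 in fl/fl and 6.41, 4.96 and 13.7 in PTKO. At AA 4wk they had 7.22, 10.4 and 9.03 in fl/fl and 5.78, 4.72 and 5.44 in PTKO. The high values at AA 2wk were those of library 3 in both genotypes, and the genotypes overlapped at each time except AA 4wk. No comparison passed a Benjamini-Hochberg adjusted p of 0.05 in limma: the AA 4wk genotype difference was -0.64 ± 0.31 on the log2 scale (adjusted p = 0.822) and the AA 4wk change in PTKO was -0.51 ± 0.31 (adjusted p = 0.155). The interaction at AA 2wk was 0.36 ± 0.44 (limma, adjusted p = 0.977). Only 73 to 275 reads stood behind each value. The AA 4wk change in PTKO did pass in 5 of the alternative analyses, with log2 values from -0.47 to -1.10 given in the closing part on processing. The AA 2wk change in fl/fl passed without library 3 of both AA 2wk groups (-0.66). The step from AA 2wk to AA 4wk in fl/fl passed with quality weights (0.52).

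The 3 peroxisomal synthesis genes fell with the toxin in both genotypes, and Agps fell the furthest. Among the 4 tested members, limma called 2 lower at AA 2wk in fl/fl, where 12.2% of all 13624 tested genes were lower. In PTKO at AA 2wk it called 3 lower (all genes 14.3%), at AA 4wk in fl/fl 3 (14.3%) and at AA 4wk in PTKO 3 (17.3%), and none was called higher. In all 4 of these comparisons most genes moved up: the median log2 change over all tested genes was 0.33 and 0.29 after 2 weeks of toxin (fl/fl and PTKO) and 0.35 and 0.40 after remodeling. Median-of-ratios scaling removed this shift: at AA 2wk in fl/fl it called 27.9% of all genes higher and 27.7% lower, against 50.4% and 12.2%, and at AA 4wk in PTKO 32.9% and 33.9%, against 55.0% and 17.3%. Under it and under quantile normalization Agps and Far1 stayed lower in every toxin group. The Tmem86a difference at AA 2wk in fl/fl, however, turned to -0.28 and -0.23, and Gnpat at AA 2wk in fl/fl became a call.

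FAR1 reduces fatty acyl-CoA to the fatty alcohol that becomes the ether-linked chain. Far1 had 51.8, 57.2 and 63.1 RPKM in fl/fl DMSO and 57.3, 62.6 and 67.9 in PTKO DMSO. At AA 2wk it had 33.8, 33.5 and 30.6 in fl/fl and 34.1, 30.8 and 24.3 in PTKO, and at AA 4wk 22.9, 24.5 and 22.0 in fl/fl and 28.0, 24.7 and 20.0 in PTKO. All 12 toxin libraries were below all 6 vehicle libraries. The log2 change was -0.79 ± 0.13 in fl/fl and -1.06 ± 0.13 in PTKO at AA 2wk (limma, adjusted p = 0.000132 and 1.38e-05). At AA 4wk it was -1.27 ± 0.13 and -1.34 ± 0.13 (limma, adjusted p = 1.76e-06 and 8.07e-07).

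GNPAT puts the first acyl chain on dihydroxyacetone phosphate and opens the pathway. Gnpat had 37.4, 35.6 and 42.8 RPKM in fl/fl DMSO and 42.8, 43.8 and 43.8 in PTKO DMSO. It had 35.5, 34.3 and 36.2 in fl/fl and 33.5, 33.3 and 33.0 in PTKO at AA 2wk, and 30.7, 30.6 and 29.8 in fl/fl and 30.2, 30.0 and 32.6 in PTKO at AA 4wk. Its fall was the smallest of the 3 synthesis members, and the fl/fl libraries at AA 2wk overlapped those with DMSO. The change at AA 2wk was -0.12 ± 0.07 in fl/fl (limma, adjusted p = 0.131) and -0.38 ± 0.07 in PTKO (adjusted p = 0.000307). At AA 4wk it was -0.33 ± 0.07 in fl/fl and -0.48 ± 0.07 in PTKO (limma, adjusted p = 0.000564 and 1.89e-05). Leaving out fl/fl DMSO library 2 turned the fl/fl AA 2wk change into a call (-0.17, limma adjusted p = 0.0404).

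AGPS exchanges that acyl chain for the fatty alcohol and so makes the ether bond. Agps had 50.6, 48.2 and 79.8 RPKM in fl/fl DMSO and 60.3, 61.6 and 77.6 in PTKO DMSO. After the toxin it had 22.4, 19.6 and 15.4 in fl/fl AA 2wk, 17.8, 17.7 and 11.9 in PTKO AA 2wk, 12.4, 14.4 and 12.7 in fl/fl AA 4wk and 17.2, 14.7 and 13.3 in PTKO AA 4wk. The lowest vehicle library was above the highest toxin library by a wide margin. In fl/fl the log2 change was -1.57 ± 0.20 at AA 2wk and -2.06 ± 0.20 at AA 4wk (limma, adjusted p = 1.71e-05 and 1.11e-06), and in PTKO -2.02 ± 0.20 and -2.07 ± 0.20 (adjusted p = 2.1e-06 and 7.64e-07). As fitted ratios of RPKM + 1 these are 0.337 and 0.24 in fl/fl and 0.247 and 0.238 in PTKO. The AA 2wk libraries that lay nearest the vehicle group on the first component, library 3 of each genotype, had the lowest Agps and Far1 of their groups. Without them the AA 2wk change in Agps was -1.43 in fl/fl and -1.84 in PTKO.

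**Figure D2:**
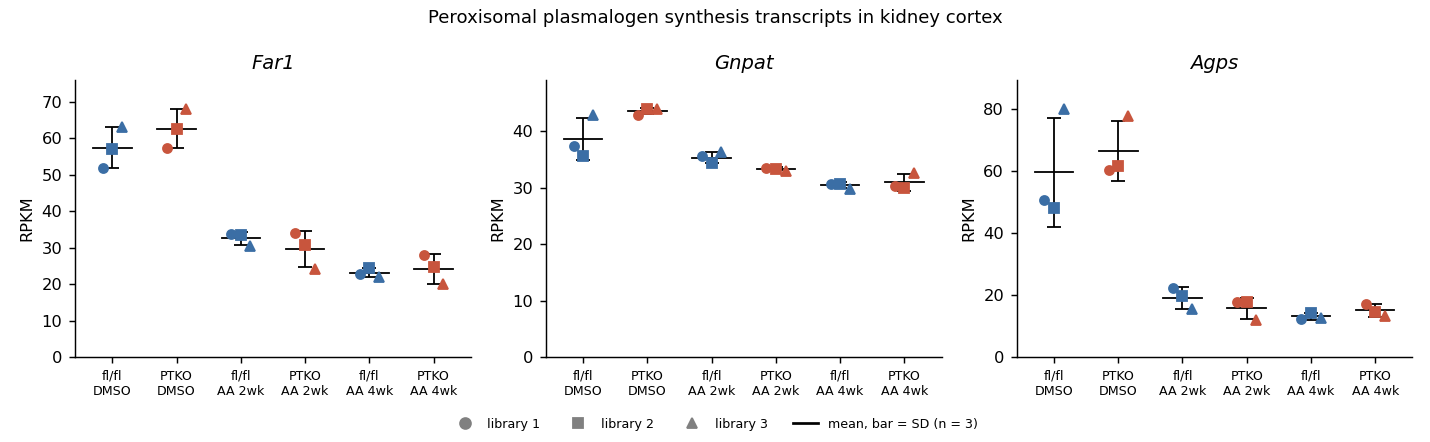
RPKM (y axes, from 0) of Far1, Gnpat and Agps in the 18 libraries by group (x axis), with mean and SD (n = 3); fl/fl is blue and PTKO red. For Far1 and Agps the 12 toxin libraries lie below the 6 vehicle libraries, with Agps at 11.9 to 22.4 RPKM against 48.2 to 79.8.

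Genotype made no called difference to any synthesis member. With DMSO the PTKO minus fl/fl difference was 0.12 ± 0.13 for Far1, 0.17 ± 0.07 for Gnpat and 0.18 ± 0.20 for Agps on the log2 scale (limma, adjusted p = 1, 0.907 and 1). limma called 0 of the 4 tested members between genotypes at any time and 0 in either interaction. Of all genes, 0.0367% were called between genotypes under vehicle, 0.00734% after 2 weeks of toxin and 0.00734% after remodeling, and 0.0147% and 0.00734% in the AA 2wk and AA 4wk interactions. At an unadjusted p under 0.05 there was 1 member between genotypes with DMSO (Gnpat) and 1 in the AA 2wk interaction (also Gnpat, -0.26 ± 0.10, limma adjusted p = 0.853), and voom on recovered reads called 0 in each. The interactions of Agps were -0.45 ± 0.28 at AA 2wk and -0.01 ± 0.28 at AA 4wk (limma, adjusted p = 0.938 and 0.999), so differences in its toxin response of this size were not detectable with 3 libraries a group. Those of Far1 were -0.27 ± 0.18 and -0.07 ± 0.18 (adjusted p = 0.951 and 0.966). Between AA 2wk and AA 4wk, 0 of the 4 members were called in fl/fl (all genes 0.125%) and 0 in PTKO (all genes 4.16%). With no adjustment 3 in fl/fl and 1 in PTKO had a p under 0.05, and voom called 0.

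Agps exceeded Tmem86a under vehicle and lay below it at AA 4wk. The ratio of their RPKM values, both per length, was 2.99, 2.5 and 5.38 in fl/fl DMSO and 1.94, 2.13 and 2.2 in PTKO DMSO. At AA 2wk it was 1.28, 1.23 and 0.709 in fl/fl and 1.4, 1.26 and 1.21 in PTKO. At AA 4wk it was 0.455, 0.485 and 0.473 in fl/fl and 0.757, 0.518 and 0.538 in PTKO. All 6 AA 4wk libraries were under 1 and all 6 vehicle libraries over 1. Since Tmem86a was chosen by its values, this ratio is a description.

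Across the 18 libraries, log2 values of Agps and Far1 had a Pearson correlation of 0.98, Gnpat and Far1 of 0.91 and Gnpat and Agps of 0.90. These points share the split between vehicle and toxin groups. The correlations of Tmem86a were nearer 0: 0.17 with Agps, 0.10 with Gnpat, 0.08 with Far1 and -0.13 with Tmem86b. Its correlation with Klf15 was -0.189.

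The wider pathway was read from 5 gene lists by role, counted without Tmem86a, of which 33 of 34 genes were tested. Far2, the second fatty acyl-CoA reductase, was not tested and had 0.0134 to 0.372 RPKM. Over the 5 lists, limma called 14 genes higher and 12 lower at AA 2wk in fl/fl, 13 and 15 in PTKO, and 13 and 14 (fl/fl) and 12 and 15 (PTKO) at AA 4wk. The share of all genes called was 62.6% and 60.2% at AA 2wk and 66.3% and 72.2% at AA 4wk. Of all genes, 50.4%, 45.9%, 51.9% and 55.0% were called higher in the same order. The balance turned with the scaling: median-of-ratios gave 10 list genes higher and 15 lower at AA 2wk in fl/fl, 9 and 16 in PTKO, and 9 and 17 (fl/fl) and 9 and 18 (PTKO) at AA 4wk. Quantile normalization gave 10 and 15, 9 and 15, 9 and 16, and 9 and 19. Over these comparisons median-of-ratios scaling called 26.7% to 32.9% of all genes higher and 27.3% to 33.9% lower. For quantile normalization the shares were 24.1% to 29.2% and 27.7% to 36.5%.

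In ether lipid synthesis, 11 tested genes that include Gnpat, Agps and Far1, 5 were called lower and 3 higher at AA 2wk in fl/fl, with 6 lower and 1 higher in PTKO. At AA 4wk 6 were lower in each genotype, with 2 higher in fl/fl and 1 in PTKO. Of all genes, 12.2% and 14.3% were called lower at AA 2wk (fl/fl and PTKO) and 14.3% and 17.3% at AA 4wk. The shares called higher were 50.4% and 45.9%, then 51.9% and 55.0%. The median log2 change of the list was -0.12 and -0.38 at AA 2wk and -0.33 and -0.48 at AA 4wk. Chpt1, a cholinephosphotransferase that completes choline ether lipids, fell from 399.0, 414.0 and 536.0 RPKM in fl/fl DMSO to 131.0, 125.0 and 149.0 at AA 4wk, a log2 change of -1.72 ± 0.19 (limma, adjusted p = 4.28e-06). In PTKO it fell from 561.0, 390.0 and 566.0 to 144.0, 94.2 and 102.0, or by -2.15 ± 0.19 (adjusted p = 5.1e-07). Pcyt2, which makes CDP-ethanolamine, changed by -1.14 ± 0.20 in fl/fl and -1.50 ± 0.20 in PTKO at AA 4wk (limma, adjusted p = 0.000159 and 1.11e-05). Tmem189, also named Peds1, is the desaturase that places the vinyl ether double bond, and its change at AA 2wk in fl/fl was -1.01 ± 0.10 (limma, adjusted p = 3.16e-06), from 127.0, 150.0 and 150.0 RPKM to 76.4, 63.3 and 70.8.

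Members of this list that went the other way, or did not move, are named here after their values were seen. Ept1, also named Selenoi, the ethanolamine phosphotransferase, was called higher in all 4 toxin comparisons (0.54 to 0.73 on the log2 scale). Its call was lost under quantile normalization in each comparison and under median-of-ratios scaling at AA 4wk in fl/fl. Etnk1 was called higher in fl/fl only, by 0.53 ± 0.15 at AA 2wk and 0.43 ± 0.15 at AA 4wk (limma, adjusted p = 0.00671 and 0.0199). Cept1 was called higher only at AA 2wk in fl/fl (0.32 ± 0.10, limma adjusted p = 0.0162). Neither scaling kept the calls of Etnk1 and Cept1. Dhrs7b, the reductase that follows AGPS, was not called: its change was 0.11 ± 0.10 and -0.01 ± 0.10 at AA 2wk and -0.14 ± 0.10 and -0.23 ± 0.10 at AA 4wk, in fl/fl and PTKO (lowest limma adjusted p = 0.0566). Etnk2 was not called either (lowest limma adjusted p = 0.253). The other scalings called more of the list lower at AA 4wk: 8 in each genotype under median-of-ratios, and 7 (fl/fl) and 9 (PTKO) under quantile normalization. Of all genes, 30.8% and 33.9%, and 33.8% and 36.5%, were then called lower.

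Peroxisomal import was covered by 4 genes. PEX7 is the receptor that brings AGPS into the peroxisome, PEX5 is its partner, and PEX13 and PEX14 form the docking site. None was called higher, and 2 were lower at AA 2wk in fl/fl, 4 in PTKO, 3 at AA 4wk in fl/fl and 4 in PTKO. The share of all genes called lower was 12.2%, 14.3%, 14.3% and 17.3%. The medians were -0.30, -0.42, -0.47 and -0.55. Pex7 went from 36.3, 33.6 and 37.9 RPKM in PTKO DMSO to 20.6, 18.5 and 20.3 at AA 4wk, by -0.83 ± 0.13 (limma, adjusted p = 4.13e-05), and in fl/fl changed by -0.54 ± 0.13 (adjusted p = 0.00183). Pex5 changed by -0.46 ± 0.13 and -0.69 ± 0.13 at AA 4wk in fl/fl and PTKO (limma, adjusted p = 0.00702 and 0.000288). Both scalings put all 4 genes lower in all 4 comparisons. The share of all genes called lower was then also larger, at 27.3% to 33.9% under median-of-ratios scaling and 27.7% to 36.5% under quantile normalization.

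Plasmalogen breakdown without Tmem86a held 6 genes, with 3 lower in each toxin comparison and 1 higher, or 2 higher at AA 2wk in PTKO. Of all genes, 12.2%, 14.3%, 14.3% and 17.3% were called lower and 50.4%, 45.9%, 51.9% and 55.0% higher. The medians of the list were -0.35, -0.24, -0.30 and -0.37. Pla2g4a, the cytosolic phospholipase A2 that frees the second chain, rose from 2.57, 2.97 and 1.8 RPKM in fl/fl DMSO to 13.6, 15.8 and 7.87 at AA 2wk, by 1.93 ± 0.22 (limma, adjusted p = 6.98e-06). In PTKO it rose by 1.87 ± 0.22 (adjusted p = 9.25e-06), and the AA 4wk changes were 1.94 ± 0.22 and 1.98 ± 0.22. Aldh3a2, which oxidizes the fatty aldehyde that a lysoplasmalogenase releases, fell from 124.0, 99.4 and 139.0 RPKM in fl/fl DMSO to 46.1, 47.9 and 44.1 at AA 4wk, by -1.36 ± 0.12 (limma, adjusted p = 7.64e-07). In PTKO its AA 4wk change was -1.47 ± 0.12 (adjusted p = 3.05e-07). The calcium-independent phospholipases Pla2g6 and Pnpla8 were the other called decreases, at -0.39 ± 0.07 and -0.44 ± 0.10 in fl/fl at AA 4wk (limma, adjusted p = 0.000213 and 0.00141). Agmo, which cleaves alkyl ethers, was called higher only at AA 2wk in PTKO (0.56 ± 0.22, limma adjusted p = 0.034), and neither scaling kept that call.

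**Figure D3:**
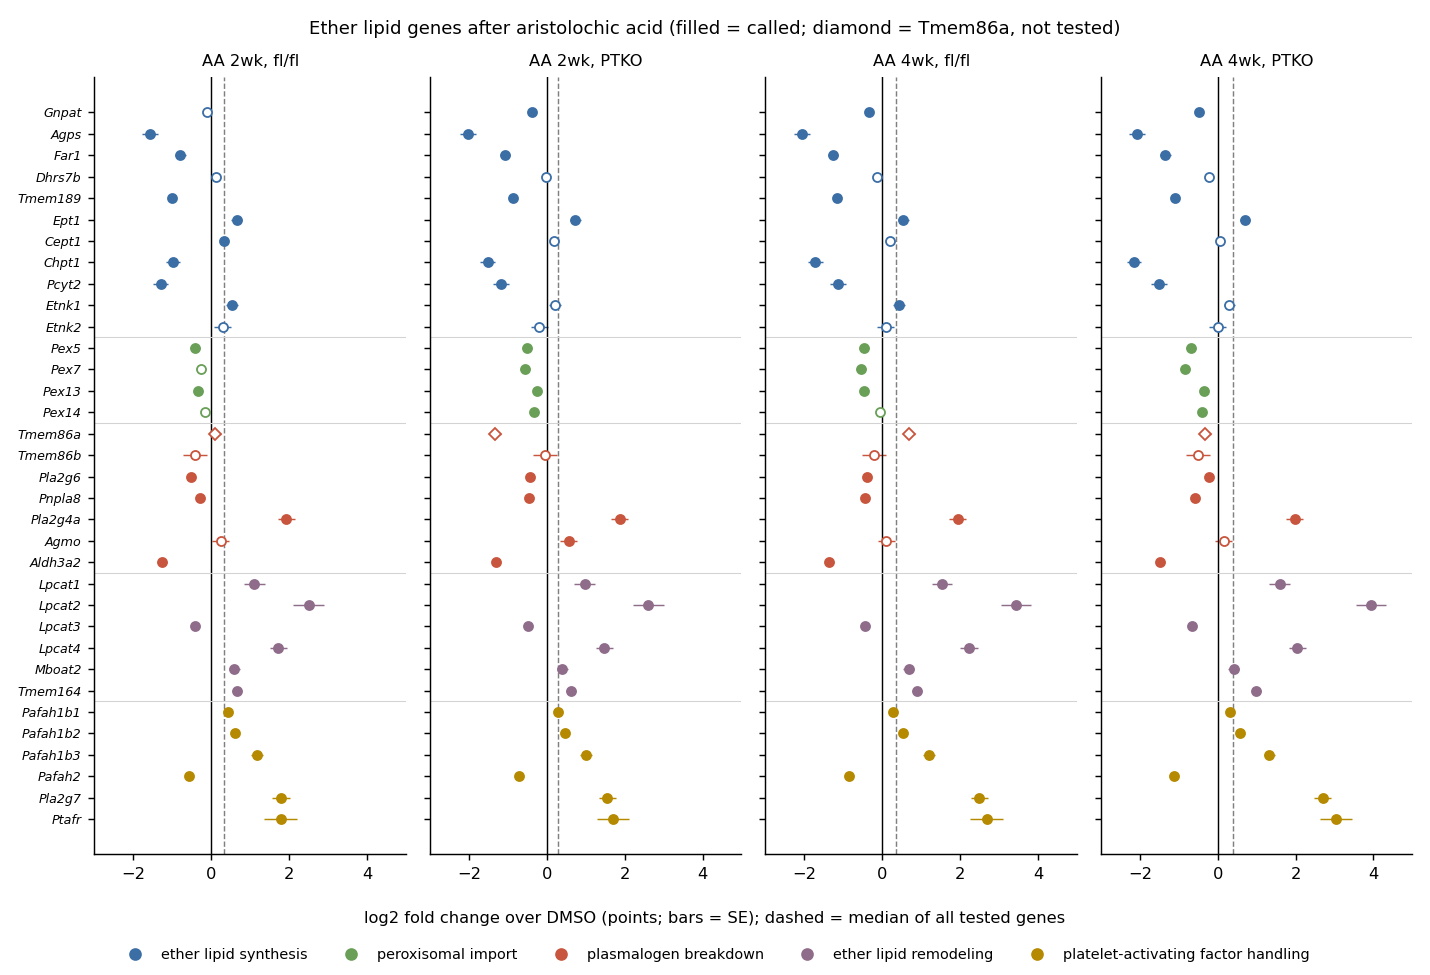
Log2 fold change over DMSO (x axis, points with SE) for the 33 tested genes of the 5 lists and Tmem86a (rows) in the 4 toxin comparisons (panels); filled points were called by limma, open ones were not, the open diamond is Tmem86a without a test, and the dashed line is the median of all tested genes. Chpt1 reaches -2.15 and Agps -2.07, Lpcat2 reaches 3.93, and Tmem86a moves from 0.10 and 0.69 in fl/fl to -1.32 and -0.32 in PTKO.

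Ether lipid remodeling and platelet-activating factor handling, with 6 genes each, had 5 called higher and 1 lower in all 4 toxin comparisons. Remodeling medians were 0.89, 0.80, 1.22 and 1.29, and those of platelet-activating factor genes 0.89, 0.75, 0.87 and 0.94. Of all genes, 50.4%, 45.9%, 51.9% and 55.0% were called higher in these comparisons. Under the 2 other scalings 4 or 5 remodeling genes and 3 to 5 platelet-activating factor genes were called higher, and 1 of each list lower. Those scalings called 24.1% to 32.9% of all genes higher and 27.3% to 36.5% lower. Lpcat2, the acyltransferase that makes platelet-activating factor from an ether lysolipid, had 0.376, 0.718 and 0.406 RPKM in fl/fl DMSO and 18.2, 13.5 and 14.3 at AA 4wk, a rise of 3.44 ± 0.39 (limma, adjusted p = 4.81e-06). In PTKO it went from 0.586, 0.436 and 0.374 to 20.6, 24.9 and 18.8 (3.93 ± 0.39, adjusted p = 1.17e-06). Lpcat4, which reacylates ether lysolipids, rose by 2.23 ± 0.22 in fl/fl and 2.04 ± 0.22 in PTKO at AA 4wk (limma, adjusted p = 1.51e-06 and 2.31e-06).

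Pla2g7, the secreted platelet-activating factor acetylhydrolase, rose by 2.49 ± 0.22 in fl/fl and by 2.70 ± 0.22 in PTKO at AA 4wk (limma, adjusted p = 6.64e-07 and 2.8e-07). Ptafr, the receptor, rose by 2.68 ± 0.42 and 3.04 ± 0.42 (adjusted p = 7.12e-05 and 1.74e-05). Macrophages are a known source of Lpcat2, Pla2g7 and Ptafr transcripts, and all 9 macrophage markers were called higher in the same 4 comparisons. Their part in these rises was not tested. The genes that fell in these lists, named after their values were seen, were Lpcat3 (-0.43 ± 0.09 in fl/fl and -0.67 ± 0.09 in PTKO at AA 4wk, limma adjusted p = 0.00093 and 1.55e-05) and the intracellular acetylhydrolase Pafah2 (-0.85 ± 0.09 and -1.12 ± 0.09, adjusted p = 3.33e-06 and 2.89e-07). Lpcat3 is the main arachidonoyl acyltransferase for phosphatidylcholine.

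Between genotypes and in both interactions limma called 0 of these 33 genes, with 2, 0 and 4 at an unadjusted p under 0.05 for DMSO, AA 2wk and AA 4wk and 1 in each interaction, and voom called 0. Of all genes, limma called 0.0367%, 0.00734% and 0.00734% between genotypes at these times. In the AA 2wk and AA 4wk interactions it called 0.0147% and 0.00734%. From AA 2wk to AA 4wk limma called 0 in fl/fl (10 at an unadjusted p under 0.05, 0 by voom), where 0.125% of all genes were called. In PTKO it called 2 of 33 where 4.16% of all genes were called. With library number as a block (same-numbered libraries of these 2 groups correlated at 0.10 to 0.24), the PTKO count was 5, beside 1570 calls over all genes against 567. In PTKO Pla2g7 rose from 37.8, 37.5 and 22.3 RPKM to 62.7, 83.5 and 70.3 (1.15 ± 0.22, limma adjusted p = 0.0188), and Pafah2 fell from 31.4, 34.1 and 38.1 to 26.6, 23.9 and 26.1 (-0.42 ± 0.09, adjusted p = 0.0274). Both calls were lost without PTKO AA 2wk library 3, PTKO AA 4wk library 2 or PTKO AA 4wk library 3.

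Tmem86a is known as a target of the LXR sterol receptors in macrophages, and 12 LXR receptor and target genes were read beside it. At AA 2wk 6 were called higher and 2 lower in fl/fl, and 7 and 3 in PTKO, and at AA 4wk 9 and 3 in fl/fl and 8 and 3 in PTKO. Of all genes 50.4%, 45.9%, 51.9% and 55.0% were called higher, so the count of 6 of 12 at AA 2wk in fl/fl is near the background. Median-of-ratios scaling gave 5 higher and 3 lower, 7 and 3, 6 and 3, and 6 and 3. Under it 27.9%, 26.7%, 30% and 32.9% of all genes were called higher. The list's median log2 change went from 0.53 to 0.14 at AA 2wk in fl/fl and from 0.77 to 0.35 at AA 4wk in fl/fl. The median over all tested genes fell alike in these comparisons, from 0.33 to -0.006 and from 0.35 to -0.015. Pltp, a phospholipid transfer protein, had 1.81, 2.54 and 1.05 RPKM in fl/fl DMSO, 34.6, 31.4 and 9.16 at AA 2wk and 57.4, 45.5 and 46.9 at AA 4wk. In PTKO it had 1.92, 2.7 and 2.63, then 23.2, 25.0 and 14.0, then 57.9, 61.2 and 65.2. Its AA 2wk change was upward in both genotypes (3.05 ± 0.36 and 2.64 ± 0.36, limma adjusted p = 1.21e-05 and 4.05e-05), where that of Tmem86a was 0.10 and -1.32. The cholesterol exporter Abca1, named after its values were seen, rose by 1.78 ± 0.24 and 1.69 ± 0.24 at AA 2wk (limma, adjusted p = 3.4e-05 and 5.44e-05). Other genes of the list fell, also named after their values were seen. From fl/fl DMSO to fl/fl AA 4wk mean RPKM went from 26.5 to 17.2 for the receptor gene Nr1h3. It went from 65.1 to 9.98 for Scd1 and from 432 to 209 for Smpdl3a. The part of LXR receptors and of macrophages in these changes was not tested. limma called 0 of the 12 between genotypes or in the interactions, with 0, 1 and 1 at an unadjusted p under 0.05 for DMSO, AA 2wk and AA 4wk and 0 and 1 in the interactions, and voom called 0. In each of these comparisons limma called at most 0.0367% of all genes.

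The gene profiles most like Tmem86a over the 18 libraries, by Pearson correlation of log2(RPKM + 1), were Foxo4 (0.893), Slc38a10 (0.875), Hpgd (0.842), Cdh13 (0.787) and Wasf3 (0.780). Spearman correlations for the same genes were 0.926, 0.878, 0.882, 0.800 and 0.732. On the log2(RPKM + 1) scale, group means of all 5 spanned a narrower range than those of Tmem86a, but as plain ratios of RPKM the low genes Wasf3 and Cdh13 spanned a wider one. Foxo4, a forkhead transcription factor, had a mean of 13.8 RPKM in PTKO DMSO and 11.1 in PTKO AA 2wk. Hpgd, the enzyme that inactivates prostaglandins, had 12.1 and 6.45. Opposite profiles were those of Alas1 (-0.797), the first enzyme of haem synthesis, Smco3 (-0.785) and Slc35e3 (-0.779). Alas1 was 92.4, 100 and 147.0 RPKM in fl/fl DMSO and 75.6, 68.8 and 66.7 in PTKO DMSO, and 95.0, 95.5 and 62.0 in fl/fl AA 2wk and 90.2, 96.7 and 163.0 in PTKO AA 2wk. These genes were picked for their likeness out of 13624, so their values are a description.

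**Figure D4:**
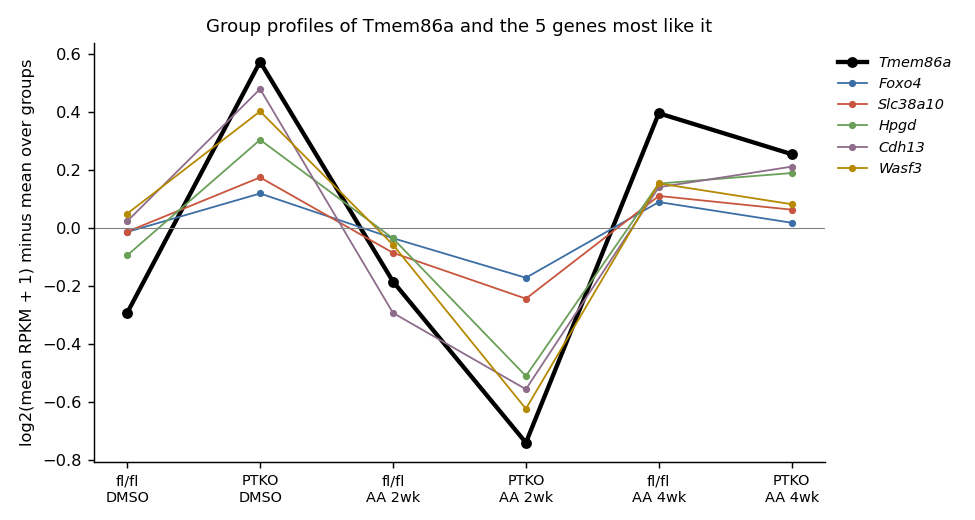
Group means as log2(mean RPKM + 1) minus the average over the 6 groups (y axis), by group (x axis), for Tmem86a and the 5 genes with the highest Pearson correlation with it. Each line is highest in PTKO DMSO and lowest in PTKO AA 2wk, and Tmem86a and Foxo4 are the extremes in width on this scale, with correlation 0.893 between them.

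Of the 3 nearest genes in the table on each side of Tmem86a, only Spty2d1, a histone chaperone whose start lies 60244 bases before that of Tmem86a, was expressed enough to be tested. It had 8.02, 6.97 and 7.79 RPKM in fl/fl DMSO and 7.81, 7.53 and 8.17 in PTKO DMSO. Its genotype difference with DMSO was 0.04 ± 0.12 (limma, adjusted p = 1), and its interactions were -0.16 ± 0.17 and 0.12 ± 0.17 (adjusted p = 0.973 and 0.952). C86187, Gm9999, Ptpn5, Mir7056 and Mrgpra6 did not exceed 0.176 RPKM in any library. Under vehicle Tmem86a differed by 0.86 on the log2 scale while its only expressed neighbour differed by 0.04. The 0.86 is part of the pattern for which Tmem86a was chosen, so setting it beside 1 neighbour is a description.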

How the data were processed

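RNA from kidney cortex was sequenced in 18 libraries of 6 groups. The expression table was deposited by the authors as RPKM. Per the submitters' processing notes, bcl2fastq 2.19, kallisto and the mm10 build were used. How reads were counted, and against which annotation, is not given in the sources used here. Whole reads could be recovered from the RPKM steps for 17578 of the 17579 genes that exceeded 0 in 6 or more libraries (tolerance 0.02 reads), which also gave each library's depth.

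The 13624 genes that reached 1 RPKM in 3 or more libraries were tested with limma 3.58.1 in R 4.3.3 on log2(RPKM + 1). The model had 6 group means over all 18 libraries, with trend and robust empirical Bayes. All tests were two-sided, with Benjamini-Hochberg adjustment over all 13624 genes, with calls at 0.05. Fold changes on this scale understate changes of low genes. The members and lists were chosen with earlier results of these data known. Named genes are the members, up to 3 called genes with the largest change in each list and comparison, the 5 profiles most and 3 least like Tmem86a, and its neighbours. The older symbols Tmem189 and Ept1 are those of the table. Deviations from group means correlated between same-numbered libraries at 0.43 to 0.66 for the AA 2wk genotypes and 0.10 to 0.24 for PTKO AA 2wk with PTKO AA 4wk. Every other pair of groups had a pair of libraries under 0.1, and the labels do not say what a number marks. Scripts were tested on simulated data. Alternatives were a pseudocount of 0.1, no filter, median-of-ratios scaling, quantile normalization, quality weights, a replicate block, the compared groups alone, voom on recovered reads, and leaving out libraries. Protein sequences were not used here.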

Additional observations from a re-analysis of the deposited data

Results flagged for a closer look

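Opposite directions in different groups drew attention to 5 differences, in each of which every library of 1 group lay above the mean of its control group and every library of the other below. All members were screened with this rule over several pairs of differences. How many of all genes meet it was not counted. For Tmem86a, the AA 4wk change was 0.69 in fl/fl and -0.32 in PTKO, a difference of -1.01 on the log2 scale. The genotype difference in Tmem86a was 0.86 with DMSO and -0.55 at AA 2wk, a difference of -1.42. Neither was tested, since the gene was chosen for this pattern. For Gnpat the genotype difference was 0.17 with DMSO and -0.08 at AA 2wk, a difference of -0.26 that limma did not call (adjusted p = 0.853). For Agps it was 0.18 with DMSO and -0.26 at AA 2wk, a difference of -0.45 that limma did not call (adjusted p = 0.938). From AA 2wk to AA 4wk the genotype difference in Agps changed by 0.44, from -0.26 to 0.18, and this difference was not tested.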

How the results depend on the processing

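The falls of Agps and Far1 in all 4 toxin comparisons, and of Gnpat in PTKO at AA 2wk and in both genotypes at AA 4wk, kept their direction and call under all settings run. Log2 differences follow. Median-of-ratios scaling moved Tmem86a to -0.28 (AA 2wk, fl/fl), -1.65 (AA 2wk, PTKO), 0.28 (AA 4wk, fl/fl) and -0.78 (AA 4wk, PTKO), and gave Gnpat -0.52 (AA 2wk, fl/fl, limma adjusted p = 0.000846) and -0.01 (genotype, AA 4wk) and Tmem86b -0.92 (AA 4wk, PTKO, adjusted p = 0.0241). Quantile normalization gave Tmem86a -0.23, 0.42 and -0.52 (AA 2wk fl/fl, AA 4wk fl/fl, AA 4wk PTKO) and an AA 2wk interaction of -1.25, with Gnpat at -0.28 (AA 2wk, fl/fl) and Tmem86b at -1.10 (AA 4wk, PTKO).

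Without library 3 of both AA 2wk groups, Tmem86a was -0.30 (genotype, AA 2wk) and -1.16 (interaction, AA 2wk). Tmem86b was -0.12 (genotype, AA 2wk), -0.66 (AA 2wk, fl/fl, limma adjusted p = 0.0282) and -0.51 (AA 4wk, PTKO, limma adjusted p = 0.0463). The 5 lists then had 1 call between genotypes at AA 4wk and 4 from AA 2wk to AA 4wk in PTKO, where 1.45% and 5.98% of all genes were called. Quality weights gave 2 list calls between genotypes at AA 2wk and 2 at AA 4wk, 15 from AA 2wk to AA 4wk in fl/fl and 7 in PTKO, where 11.9%, 4.54%, 26.2% and 14.2% of all genes were called. For that step in fl/fl they gave Tmem86b 0.52, Gnpat -0.22, Agps -0.73 and Far1 -0.54, and in PTKO Far1 -0.41, all called. They also gave Gnpat -0.16 (AA 2wk, fl/fl), Tmem86b -0.47 (AA 4wk, PTKO), Agps -0.01 (genotype, DMSO), and AA 4wk interactions of 0.22 for Agps and 0.08 for Far1. With the compared groups alone, Tmem86b at AA 4wk in PTKO was -0.51 (limma, adjusted p = 0.0141). The step from AA 2wk to AA 4wk in PTKO then had 0 list calls, and 0 over all genes. With voom the Agps interaction at AA 4wk was 0.00. The cause of these changes was not tested.

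Over all groups, pairing by number was uneven: correlations of same-numbered libraries ran from -0.16 to 0.66, with 23 of 45 over 0.1. With number as a replicate block, the lists had 1 call from AA 2wk to AA 4wk in fl/fl and 5 in PTKO. Over all genes that step had 1570 calls in PTKO against 567, and 40 against 17 in fl/fl. The block changed no other call of the members or count of the lists by over 1.5 times.

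Leaving out 1 library at a time gave Agps -0.23 to 0.04 (AA 4wk against AA 2wk, PTKO) and -0.24 to 0.12 (interaction, AA 4wk). Far1 ran from -0.05 to 0.18 (genotype, AA 4wk) and -0.18 to 0.06 (interaction, AA 4wk), and Gnpat from -0.17 to -0.04 (AA 2wk, fl/fl) and -0.01 to 0.04 (genotype, AA 4wk). Tmem86b ran from -0.43 to 0.22 (AA 2wk, PTKO), -0.01 to 0.44 (AA 4wk against AA 2wk, fl/fl), -0.36 to 0.29 (genotype, AA 2wk) and -0.02 to 0.63 (interaction, AA 2wk). List calls from AA 2wk to AA 4wk in PTKO ran from 0 to 5.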
